A study of Homo sapiens with 9 samples.

Results

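The ATP-binding cassette (ABC) transporters were followed in the cultured human myeloma line MM.1S across increasing doses of EGCG (epigallocatechin gallate), a catechin abundant in green tea. The family was taken as every gene ID in the deposited table that maps to a protein-coding symbol of the form ABC, a subfamily letter A to G and a number. That gave 45 members among 60675 gene IDs, with 12 in subfamily A, 9 in B, 11 in C, 4 in D, 1 in E, 3 in F and 5 in G. The groups were MM.1S cells left for 24 h with 0 µM EGCG (the control), 40 µM EGCG or 80 µM EGCG, with 3 RNA-seq libraries each and no other agent or allele named in the labels. The stated purpose of the sequencing was to learn how EGCG brings about apoptosis of myeloma cells.

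ABC proteins bind and hydrolyse ATP on paired nucleotide-binding domains. In subfamilies A, B, C, D and G these domains are coupled to membrane-spanning domains that move lipids, peptides, metals, conjugates or drugs across a membrane. Subfamilies E and F have no membrane domain and act on ribosomes. In myeloma and other blood cancers the family is known for the multidrug pumps ABCB1, ABCC1 and ABCG2, which carry anticancer drugs out of cells.

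Library totals ran from 12674490 to 16427343 counts, so the 3-count floor of a library lay at 0.183 to 0.233 CPM. CPM is a gene's count scaled to library size with TMM factors. The second principal component of all genes set 40 µM replicate 2 apart at -51.83, against -14.21 to 19.8 in the other libraries. Differences were tested with edgeR's quasi-likelihood test over 15982 genes, and genes with a Benjamini-Hochberg adjusted p under 0.05 count as called. Each ± beside a log2 fold change is its standard error, and each ± beside a level is an SD over 3 libraries. The labels do not say that replicates were separate cultures, so p-values measure only the spread between these libraries. In bulk libraries fewer cells carrying a transcript and less of it per cell cannot be told apart. All 14 listed myeloma and plasma cell markers were detected, and their summed level ran from 15300 to 17800 CPM without EGCG, 14100 to 14500 CPM with 40 µM and 11400 to 12300 CPM with 80 µM. At 80 µM 8 of the 14 fell and 2 rose, where 17.5% of all genes tested fell and 17.4% rose. Their median log2 fold change was -0.39, beside -0.00 over all genes tested. The part of that shift in the results on transporters was not tested. Listed markers of T and NK cells, monocytes and macrophages, stromal cells, and hepatocytes and intestinal epithelium summed to at most 7.79, 16, 3.9 and 1.68 CPM in any library. CD3D and NKG7, S100A8, COL1A2 and LUM, and FABP1 were at 0 in every library.

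ABC transporter RNA in MM.1S cells was dominated by intracellular members, not by drug pumps. Levels of different genes are compared here as the authors' deposited FPKM, which is scaled by gene length. In the control, ABCF2, a cytosolic ABC protein of the ribosome-associated subfamily F, stood at 37.9 ± 1.62 FPKM. ABCB10, a mitochondrial inner membrane transporter needed for haem synthesis, stood at 26.6 ± 3.26 FPKM, and ABCE1, which splits ribosomes after termination, at 24.7 ± 4.38 FPKM. The libraries of ABCB10 and ABCE1 overlapped, so their order was not resolved. These 3 members held 64.4 to 66.1% of the family's summed FPKM in control libraries, 66.2 to 68.9% at 40 µM and 57.4 to 62.1% at 80 µM. Behind them came mitochondrial ABCB8 at 8.25 ± 0.282 FPKM, ABCF3 at 6.54 ± 0.337 FPKM and the phospholipid transporter ABCA7 at 5.69 ± 0.612 FPKM. The order of ABCF3 and ABCA7 was not resolved either. This order and these shares depend on the gene lengths behind the deposited FPKM, which were not checked. ABCB8 and ABCB10 had close control means of 132 and 134 CPM, and their control libraries overlapped in CPM. Their distance in FPKM therefore rests on the lengths used.

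Of the 45 members, 3 averaged at least 20 FPKM over the 9 libraries, 12 lay between 1 and 20 FPKM, 11 between 0.1 and 1 FPKM, and 15 under 0.1 FPKM but above 0. The other 4, ABCA4, ABCB5, ABCC8 and ABCC12, had no count in any library. Among drug pumps in the control, ABCC10 stood at 4.07 ± 0.159 FPKM, ABCC5 at 3.94 ± 0.155 FPKM, ABCC1 at 3.35 ± 0.0197 FPKM, ABCC4 at 1.41 ± 0.117 FPKM and ABCG2 at 1.22 ± 0.184 FPKM. ABCB1 stood at 0.118 ± 0.00941 FPKM, 25th in the order of the family (rank 25). Its libraries overlapped those of ABCA1 and ABCA3, so its order against them was not resolved. A filter on low counts left 27 members in the test, and 24 of these were at or above its 0.722 CPM limit in all 9 libraries. The exceptions were ABCA2, ABCA10 and ABCF1, and the first of them was below the limit in all 3 libraries at 80 µM.

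**Figure D1:**
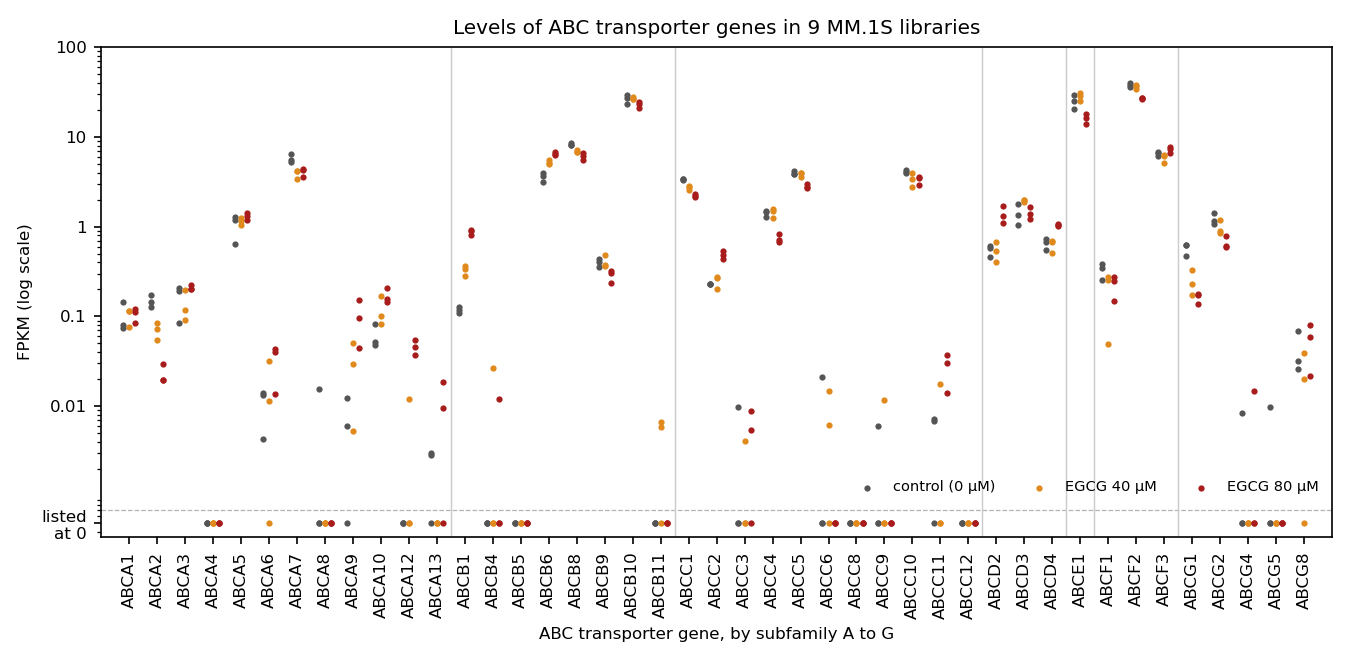
Deposited FPKM (log axis, with values listed at 0 set on a lowest level of their own) of ABC genes, by subfamily, where each point is 1 library of the control, 40 µM or 80 µM group. ABCF2, ABCB10 and ABCE1 lie highest, and the means of ABCB1 stand at 0.118 FPKM without EGCG, 0.328 FPKM with 40 µM and 0.870 FPKM with 80 µM.

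At 40 µM few members moved. ABCB1 and ABCB6 rose and ABCA7 fell, so 3 of 27 tested members (11.1%) were called, where 2.3% of all genes tested were called. Called rises made up 1.49% of all genes tested and called falls 0.813%. The median log2 fold change was -0.03 over the tested members and 0.01 over all genes tested. Before adjustment, 10 members had a p under 0.05.

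At 80 µM the family split in direction. Of the 27 tested members 17 (63%) were called, against 34.9% of all genes tested. The 6 that rose were ABCB1, ABCD2, ABCA10, ABCC2, ABCB6 and ABCD4, where 17.4% of all genes tested rose. Among the 11 that fell were ABCA2, ABCG1, ABCC4, ABCG2, ABCE1, ABCC1, ABCF2, ABCC5, ABCA7 and ABCB8, where 17.5% of all genes tested fell. A change of 2-fold or more was called for 4 of the rises and 2 of the falls. These include ABCA10, which passed the filter through the EGCG libraries, and ABCA2, which passed it through the control and 40 µM libraries. The median log2 fold change was -0.32 over the tested members and -0.00 over all genes tested, and the median absolute change was 0.53 and 0.42 on the log2 scale.

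Between the doses, 11 of 27 members (40.7%) were called at 80 µM against 40 µM, beside 23% of all genes tested. The 4 rises were ABCB1, ABCD2, ABCC2 and ABCD4, where 10.9% of all genes tested rose. Among the 7 falls were ABCA2, ABCC4, ABCE1, ABCC5, ABCF2 and ABCC1, where 12.1% of all genes tested fell. The comparisons of 40 µM and of 80 µM with the control share their control libraries.

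**Figure D2:**
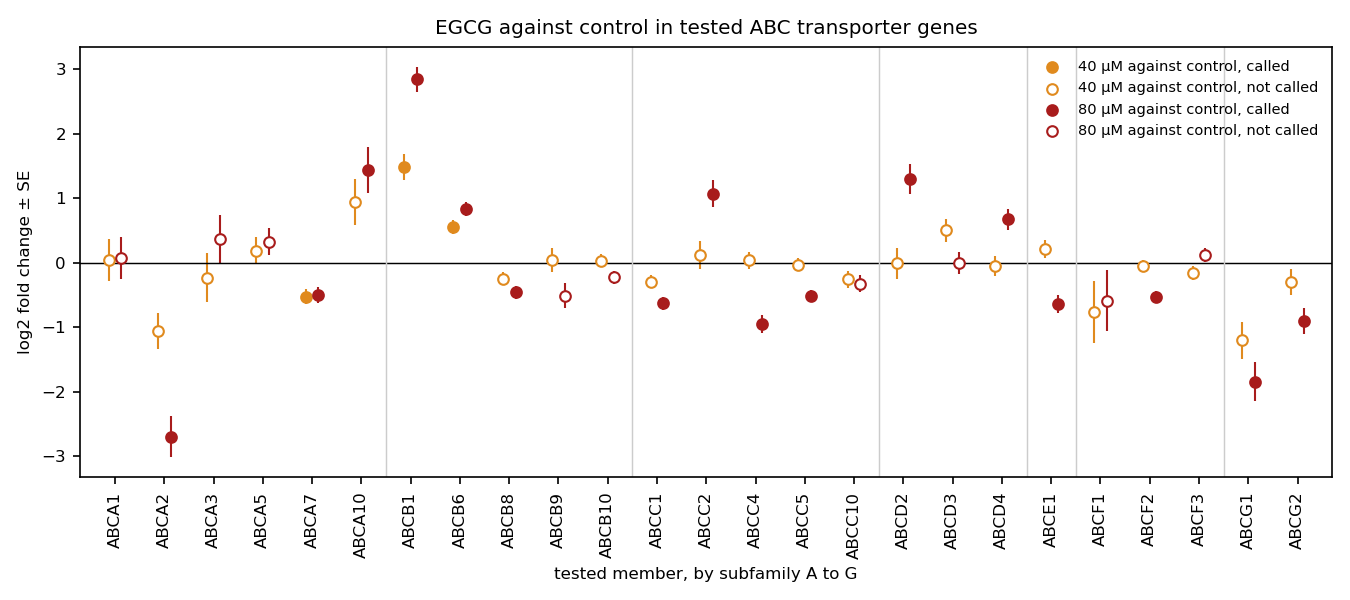
Log2 fold change (edgeR, bars are standard errors) of tested ABC members for 40 µM and 80 µM EGCG against the control, grouped by subfamily, with filled points for called members and open points for the others. ABCB1 lies highest at 2.85 and ABCA2 lowest at -2.70 at 80 µM.

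ABCB1, also called MDR1 or P-glycoprotein, is a plasma membrane pump for many hydrophobic drugs and the classic mediator of multidrug resistance. It had 1.08, 1.19 and 1.38 CPM in the control libraries, 3.72, 3.02 and 3.42 CPM at 40 µM and 8.24, 9.08 and 8.94 CPM at 80 µM. The groups did not overlap at any step of dose. The log2 fold change was 1.48 ± 0.20 at 40 µM (adjusted p = 0.0044), 2.85 ± 0.20 at 80 µM (adjusted p = 7.06e-06) and 1.37 ± 0.18 for 80 µM against 40 µM (adjusted p = 0.000803). As fitted folds these were 2.79-fold, 7.19-fold and 2.58-fold. The level at 80 µM, 0.870 ± 0.0583 FPKM, was still under the 2.20 ± 0.0994 FPKM of ABCC1 in the same libraries. It was also under ABCC10 at 3.30 ± 0.326 FPKM and ABCC5 at 2.80 ± 0.138 FPKM. All ABCB1 libraries at 80 µM lay above those of ABCG2 (0.661 ± 0.108 FPKM) and ABCC2 (0.488 ± 0.0525 FPKM). They overlapped those of ABCC4 (0.737 ± 0.0729 FPKM).

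The ABCB1 gene (ENSG00000085563) lies at chr7:87503633-87713323 on the minus strand (GRCh38). RefSeq (GRCh38.p14) gives it a start inside that span and another at its far 5′ end, and the 250 bases before each are shown because ABCB1 had the largest called rise of the family. The sequences run 5′ to 3′ on the gene's strand from chr7:87600885-87601134 and chr7:87713296-87713545, with capitals for searched motifs. In the first they mark a CCAAT box (CCAAT, starting at -238 from the transcript start), a heat shock element pair (GAANNTTC, at -175) and a CCAAT box on the other strand (at -79). The second holds none of the motifs searched.
ABCB1 inner start: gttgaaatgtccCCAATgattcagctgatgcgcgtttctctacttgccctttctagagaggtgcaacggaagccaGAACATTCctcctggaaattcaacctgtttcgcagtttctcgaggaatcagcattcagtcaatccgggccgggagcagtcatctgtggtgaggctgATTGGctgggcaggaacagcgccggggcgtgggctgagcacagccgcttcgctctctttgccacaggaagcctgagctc
ABCB1 outer start: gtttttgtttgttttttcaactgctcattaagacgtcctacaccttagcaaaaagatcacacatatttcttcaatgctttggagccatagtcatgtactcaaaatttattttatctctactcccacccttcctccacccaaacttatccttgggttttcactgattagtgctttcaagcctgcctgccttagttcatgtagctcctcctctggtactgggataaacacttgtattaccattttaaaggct

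The other drug pumps went separate ways. Of 11 members that export drugs or conjugates 7 were tested, and at 80 µM 2 rose and 4 fell, with a median log2 fold change of -0.51. Over all genes tested at 80 µM 17.4% rose and 17.5% fell, with a median of -0.00, and each list of genes below can be read against these shares. At 40 µM ABCB1 alone of them was called, and the median was -0.03.

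ABCC2 (MRP2), which exports glutathione and glucuronide conjugates at the apical membrane of liver and kidney cells, was the other riser. It had 2.29, 2.30 and 2.52 CPM in the control, 2.07, 2.87 and 2.84 CPM at 40 µM and 4.53, 4.89 and 5.52 CPM at 80 µM. The 80 µM libraries lay above all others, while those at 40 µM overlapped the control. The change on the log2 scale was 1.07 ± 0.21 at 80 µM (adjusted p = 0.00298) and 0.13 ± 0.22 at 40 µM (adjusted p = 0.776).

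ABCC1 (MRP1), the broad exporter of glutathione conjugates and anthracyclines, was lower at the higher dose. Its libraries held 50.1, 50.2 and 54.0 CPM in the control, 42.0, 40.6 and 43.4 CPM at 40 µM and 32.4, 32.4 and 34.8 CPM at 80 µM. No group overlapped another. The log2 fold change was -0.63 ± 0.10 at 80 µM (adjusted p = 0.000897), and at 40 µM it was -0.29 ± 0.10 without a call (adjusted p = 0.146). The fall of 80 µM against 40 µM (adjusted p = 0.0345) was lost in 10 of 18 alternatives. Left out in turn, control replicate 1 gave adjusted p = 0.0633, 40 µM replicates 1, 2 and 3 gave 0.0624, 0.0524 and 0.108, and 80 µM replicates 1, 2 and 3 gave 0.0835, 0.13 and 0.0754, within a range of 0.0296 to 0.13 over the edgeR, DESeq2 and limma alternatives.

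ABCC4 (MRP4), which exports cyclic nucleotides and nucleotide analogues, fell at 80 µM against both other groups. It had 19.3, 19.9 and 18.4 CPM in the control, 17.0, 21.1 and 21.2 CPM at 40 µM and 9.72, 10.9 and 9.17 CPM at 80 µM. Every 80 µM library lay under all control and 40 µM libraries. At 80 µM the log2 fold change was -0.95 ± 0.14 against the control (adjusted p = 0.000525) and -0.99 ± 0.14 against 40 µM (adjusted p = 0.00105).

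ABCC5 (MRP5), another exporter of cyclic nucleotides, also fell. Its values were 69.1, 64.5 and 70.8 CPM in the control, 68.5, 64.7 and 67.3 CPM at 40 µM and 48.1, 49.4 and 45.5 CPM at 80 µM, under all control and 40 µM libraries. The log2 fold change at 80 µM was -0.51 ± 0.10 (adjusted p = 0.00237).

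ABCG2 (BCRP), the pump for mitoxantrone, urate and porphyrins that marks side population cells, was lower at 80 µM. It had 10.9, 14.5 and 12.7 CPM in the control, 8.85, 13.01 and 9.17 CPM at 40 µM and 8.16, 6.16 and 5.98 CPM at 80 µM. The 40 µM libraries overlapped the control, and the 80 µM libraries lay under both. In log2 terms it changed by -0.90 ± 0.20 at 80 µM (adjusted p = 0.00643) and by -0.30 ± 0.20 at 40 µM (adjusted p = 0.432).

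ABCC10 (MRP7), a pump for taxanes, was not called. Its mean over the 9 libraries, 3.58 FPKM, was next to that of ABCC5 at 3.52 FPKM, and their order was not resolved. It had 51.6, 53.5 and 53.7 CPM in the control, 51.9, 37.1 and 43.7 CPM at 40 µM and 38.1, 44.5 and 44.1 CPM at 80 µM. At 80 µM its log2 fold change was -0.32 ± 0.13 (adjusted p = 0.0858), with all 80 µM libraries under those of the control. That fall was called in 3 of 18 alternatives. The adjusted p ran from 0.0471 to 0.225 over the edgeR, DESeq2 and limma alternatives.

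**Figure D3:**
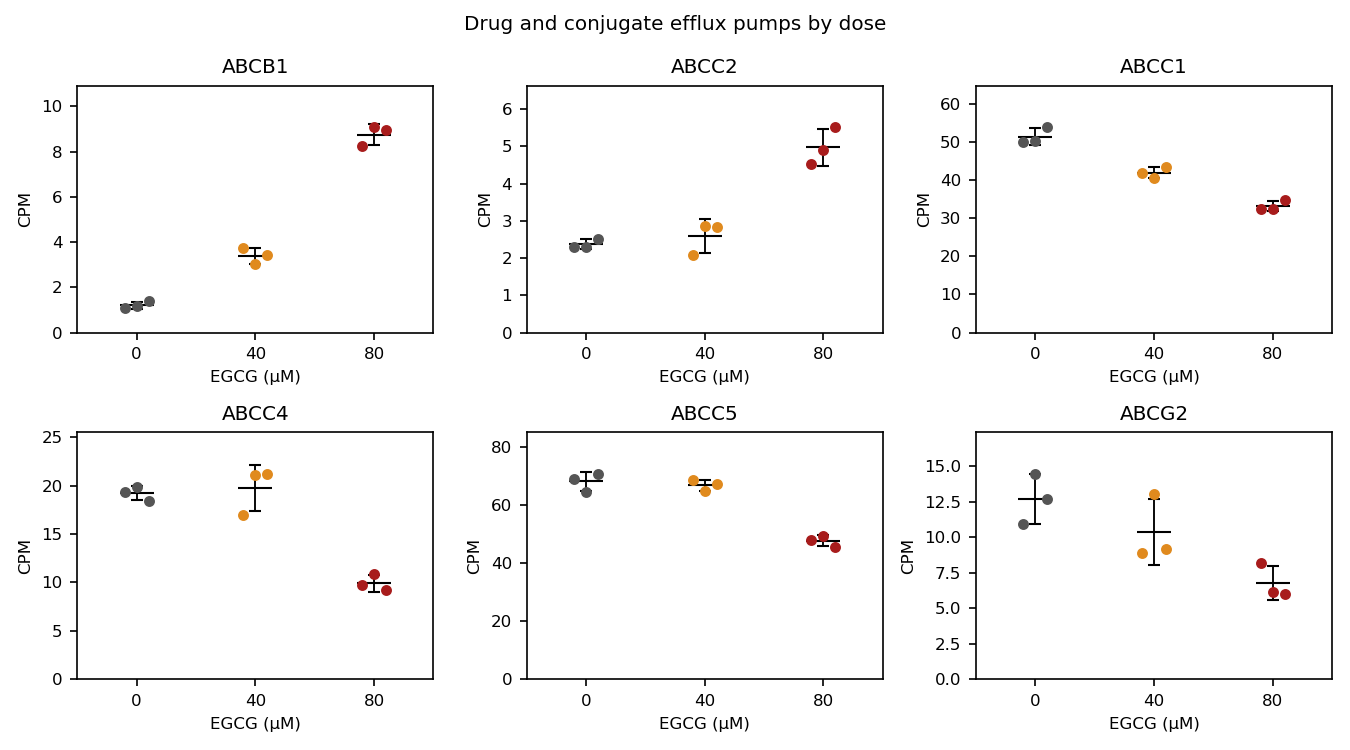
CPM of 6 drug efflux members at 0, 40 and 80 µM EGCG (points are libraries, dashes with bars are the mean and SD of 3, each axis starts at 0). ABCB1 and ABCC2 are higher at 80 µM, and ABCC1, ABCC4, ABCC5 and ABCG2 are lower.

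Subfamily B also holds transporters of mitochondria and lysosomes. ABCB6, a porphyrin transporter of membranes including the mitochondrial outer membrane, rose at both doses. It had 36.5, 33.5 and 31.6 CPM in the control, 52.4, 49.4 and 47.7 CPM at 40 µM and 59.2, 59.1 and 62.7 CPM at 80 µM. The 3 groups did not overlap. Its log2 fold change was 0.83 ± 0.10 at 80 µM (adjusted p = 0.000226) and 0.56 ± 0.10 at 40 µM (adjusted p = 0.0241). The call at 40 µM was lost in 8 of 18 alternatives. Without control replicate 1, 2 or 3 the adjusted p was 0.06, 0.0596 or 0.0818, and without 40 µM replicate 2 or 3 it was 0.079 or 0.0635, within a range of 0.00057 to 0.095 over the edgeR, DESeq2 and limma alternatives. ABCB6 shares 54.72% of its exon bases with a same-strand gene, AC068946.2, which held 2.17 to 17.07% of the pair's counts. With those counts added, an alternative chosen after seeing the data, the log2 fold change was 0.60 at 40 µM and 0.92 at 80 µM.

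ABCB10 and ABCB8 are inner membrane transporters of mitochondria. ABCB8 had 124, 127 and 145 CPM in the control, 114, 114 and 107 CPM at 40 µM and 88.0, 95.5 and 105 CPM at 80 µM. Its 80 µM libraries lay under all others (log2 fold change -0.46 ± 0.10, adjusted p = 0.00648). ABCB10 was not called, with 134, 146 and 124 CPM in the control, 134, 139 and 139.6 CPM at 40 µM and 125, 114 and 105 CPM at 80 µM, and changed by -0.23 ± 0.10 on the log2 scale at 80 µM (adjusted p = 0.109). ABCB9, a lysosomal peptide transporter, averaged 9.17 ± 1.31 CPM in the control, 9.40 ± 1.38 CPM at 40 µM and 6.43 ± 1.03 CPM at 80 µM, without a call (adjusted p = 0.058 at 80 µM). Its exons overlap genes on the other strand, among them AC026362.1 over 20.71% of its bases, and no source used here gives the strand setting of the counting.

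Listed haem and iron-sulfur genes that work with these transporters moved both ways. Of 18 tested, 4 rose and 6 fell at 80 µM, with a median log2 fold change of -0.20, where 17.4% of all genes tested rose and 17.5% fell. None of the 18 was called at 40 µM by edgeR. The chaperone HSPA9 changed by 0.87 ± 0.10 and the glutaredoxin GLRX5 by -0.85 ± 0.13 on the log2 scale (adjusted p = 0.000107 and 0.000664).

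Subfamily A, the lipid transporters, held the largest called fall. ABCA2, a lysosomal lipid transporter best known in brain, had 2.49, 2.82 and 3.67 CPM in the control, 1.46, 1.15 and 1.67 CPM at 40 µM and 0.594, 0.381 and 0.389 CPM at 80 µM. No group overlapped another. The log2 fold change reached -2.70 ± 0.32 at 80 µM (adjusted p = 0.000169) and -1.64 ± 0.34 for 80 µM against 40 µM (adjusted p = 0.00684), and at 40 µM it was -1.06 ± 0.28 (adjusted p = 0.0764). ABCA2 passed the filter through the control and 40 µM libraries, and its 80 µM libraries held only 8, 6 and 5 counts.

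ABCA7, which moves phospholipids and is known from genetics of Alzheimer disease, was the member called lower at both doses. It had 107, 91.3 and 95.1 CPM in the control, 71.6, 61.1 and 70.5 CPM at 40 µM and 60.9, 73.4 and 72.6 CPM at 80 µM. The doses overlapped each other and lay under the control. The log2 fold change was -0.50 ± 0.12 at 80 µM (adjusted p = 0.00812) and -0.53 ± 0.12 at 40 µM (adjusted p = 0.0482). The call at 40 µM was lost in 12 of 18 alternatives. Without control replicate 1, 2 or 3 the adjusted p was 0.172, 0.0659 or 0.0865, without 40 µM replicate 1, 2 or 3 it was 0.0561, 0.146 or 0.127, and without 80 µM replicate 1, 2 or 3 it was 0.0555, 0.0826 or 0.0819, within a range of 0.00429 to 0.172 over the edgeR, DESeq2 and limma alternatives.

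ABCA10 sits in a row of subfamily A genes on chromosome 17 that runs from ABCA8 (chr17:68867292-68955392) through ABCA9, ABCA6 and ABCA10 to ABCA5 (chr17:69244311-69327244), all on the minus strand. ABCA10 had 1.01, 0.594 and 0.688 CPM in the control, 1.28, 1.08 and 2.11 CPM at 40 µM and 2.60, 1.91 and 1.79 CPM at 80 µM. The 80 µM libraries lay above the control and overlapped those at 40 µM. Its log2 fold change was 1.44 ± 0.36 at 80 µM (adjusted p = 0.0103), and it passed the filter through the EGCG libraries.

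Its neighbour ABCA9 was too low for the test, with 3 counts over the control libraries, 14 at 40 µM and 48 at 80 µM. Scaled for depth, the 80 µM ratio was 16 with an exact 95% interval of 5.15 to 80.3, which covers counting error only. ABCA6 had 7 control counts, 10 at 40 µM and 22 at 80 µM (80 µM ratio 3.14, interval 1.3 to 8.7). Its control libraries held 1, 3 and 3 counts and its 80 µM libraries 3, 10 and 9, so these groups overlapped. ABCA5, which shares 318 exon bases with ABCA10, was not called (log2 fold change 0.33 ± 0.21 at 80 µM, adjusted p = 0.244), and ABCA8 had 3 counts in the control and 0 at either dose, which allows up to 3 counts in each.

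Outside that row, ABCA12, the keratinocyte lipid transporter, had 0 control counts, 2 at 40 µM and 19 at 80 µM, at least 6.33-fold higher at 80 µM against a floor of 3 counts over the control libraries. The exact 95% interval of that ratio, which also covers the counting error at 80 µM, starts lower, at 4.66. With no filter on low counts, ABCA9 and ABCA12 were called higher at 80 µM besides the 6 members above. ABCA13 had 2 counts over the control libraries, 0 at 40 µM and 10 at 80 µM (80 µM ratio 5, interval 1.06 to 46.9). Its 80 µM libraries held 0, 7 and 3 counts. ABCA1, the cholesterol efflux pump, averaged 1.52 ± 0.555 CPM in the control, 1.58 ± 0.31 CPM at 40 µM and 1.61 ± 0.305 CPM at 80 µM, with log2 fold changes of 0.05 ± 0.32 and 0.07 ± 0.33 (adjusted p = 0.952 and 0.891). ABCA3, the lamellar body lipid transporter, was also not called (0.36 ± 0.37 at 80 µM, adjusted p = 0.483).

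ABCG1, which loads cholesterol onto high-density lipoprotein and like ABCA1 is a target of the liver X receptors (LXR), fell. It had 3.50, 4.68 and 5.04 CPM in the control, 1.34, 2.66 and 1.75 CPM at 40 µM and 1.34, 1.02 and 1.32 CPM at 80 µM. No group overlapped another, though the lowest 40 µM library and the highest 80 µM library both round to 1.34 CPM. The log2 fold change was -1.84 ± 0.30 at 80 µM (adjusted p = 0.00102) and -1.20 ± 0.28 at 40 µM (adjusted p = 0.0584). ABCG8 had 19 counts over the control libraries, 10 at 40 µM and 25 at 80 µM, and its sterol-exporting partner ABCG5 had 1 count in all.

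Among 12 tested LXR targets outside the family 1 rose and 6 fell at 80 µM, with a median log2 fold change of -0.53, where 17.4% of all genes tested rose and 17.5% fell. At 40 µM 3 of them fell, where 0.813% of all genes tested did. The riser was the phospholipid transfer protein PLTP, named after its values were seen, at 1.37 ± 0.19 on the log2 scale (adjusted p = 0.000436). MYLIP, which directs the LDL receptor to degradation, changed by -1.67 ± 0.11, the desaturase SCD by -1.62 ± 0.11 and the lipogenic factor SREBF1 by -1.56 ± 0.11 on the log2 scale (adjusted p = 5.91e-06, 7.14e-06 and 7.79e-06). The LXR genes NR1H2 and NR1H3, named after their values were seen, changed by 0.54 ± 0.12 and 0.37 ± 0.28 at 80 µM (adjusted p = 0.00503 and 0.335). Activity of the receptors was not tested. Of 9 sterol and lipid efflux partners 1 rose and 2 fell at 80 µM, with a median of 0.20. The lipoprotein receptor SCARB1 changed by -1.58 ± 0.12, the lysosomal lipase LIPA by -0.72 ± 0.14 and the lysosomal sterol transporter NPC1 by 0.39 ± 0.12 (adjusted p = 1.32e-05, 0.00248 and 0.0268).

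In subfamily D 2 of 4 members rose at 80 µM and none was called lower by edgeR. ABCD2, a peroxisomal importer of very-long-chain and polyunsaturated acyl-CoA, had 3.57, 3.71 and 3.06 CPM in the control, 2.56, 3.52 and 4.22 CPM at 40 µM and 8.24, 10.4 and 6.84 CPM at 80 µM. The 80 µM libraries lay above all others. At 80 µM the log2 fold change was 1.303 ± 0.23 against the control (adjusted p = 0.00184) and 1.31 ± 0.23 against 40 µM (adjusted p = 0.00344).

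ABCD4, the lysosomal partner in cobalamin (vitamin B12) release, had 12.3, 9.13 and 12.2 CPM in the control, 11.5, 9.13 and 11.8 CPM at 40 µM and 17.7, 17.6 and 18.1 CPM at 80 µM. The 80 µM group again stood clear of the others. The rise on the log2 scale was 0.67 ± 0.16 (adjusted p = 0.00787). Of 10 other cobalamin genes 4 fell and 0 rose at 80 µM in the edgeR test, with a median of 0.03, among them the transcobalamin receptor CD320 at -1.68 ± 0.11, the cobalamin enzyme MMAB at -0.61 ± 0.17 and the carrier TCN2 at -0.49 ± 0.14 (adjusted p = 4.17e-06, 0.018 and 0.021).

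ABCD3, another peroxisomal importer, averaged 15.7 ± 3.74 CPM in the control, 22.3 ± 0.961 CPM at 40 µM and 15.7 ± 2.15 CPM at 80 µM, without a call. Of 18 genes listed as partners of these importers 3 rose and 4 fell at 80 µM (median -0.06), where 17.4% of all genes tested rose and 17.5% fell. The acyl-CoA synthetases SLC27A2 and SLC27A4 and the import receptor PEX5 changed by -1.08 ± 0.14, -0.82 ± 0.13 and -0.94 ± 0.23 on the log2 scale (adjusted p = 0.000273, 0.000856 and 0.00948).

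Subfamilies E and F act in translation. ABCE1 had 213, 245 and 186 CPM in the control, 221, 283 and 243 CPM at 40 µM and 155, 138 and 119 CPM at 80 µM. The 40 µM libraries overlapped the control and the 80 µM libraries lay under both. On the log2 scale it changed at 80 µM by -0.64 ± 0.14 against the control (adjusted p = 0.00578) and -0.86 ± 0.14 against 40 µM (adjusted p = 0.00255). Of 11 other ribosome recycling and termination genes the release factor GSPT1 alone was called at 80 µM (-0.44 ± 0.13, adjusted p = 0.0235), and the median was -0.05.

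ABCF2 had 211, 203 and 239.7 CPM in the control, 209, 206 and 216 CPM at 40 µM and 150.2, 151 and 151 CPM at 80 µM. The 80 µM libraries were close to each other and under all others. Its log2 fold change at 80 µM was -0.53 ± 0.09 (adjusted p = 0.00154). ABCF2 shares 45.82% of its exon bases with the readthrough gene ABCF2-H2BK1, which held 1.26 to 8.98% of the pair's counts, and with those counts added the change was again -0.53 (adjusted p = 0.00262). ABCF3 averaged 81.1 ± 6.02 CPM in the control, 72.9 ± 6.41 CPM at 40 µM and 88.2 ± 4.83 CPM at 80 µM, without a call (adjusted p = 0.411 at 80 µM).

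ABCF1, a factor that binds initiation factor eIF2, is listed at 2.30 ± 0.563 CPM in the control, 1.34 ± 0.852 CPM at 40 µM and 1.52 ± 0.429 CPM at 80 µM, without a call (adjusted p = 0.363 at 80 µM). It lies in the major histocompatibility region of chromosome 6, where 16 of 30 protein-coding genes within 500000 bases (53.3%) are listed at 0 in every library, against 16.7% of all protein-coding genes. TUBB, MRPS18B and PPP1R10, genes that every cell uses, are among those at 0, and how the region was counted was not tested. The same holds for the peptide transporter genes of that region outside the symbol pattern, since TAP1 is listed at 0 and TAP2 changed by -1.09 ± 0.33 on the log2 scale at 80 µM (adjusted p = 0.0244).

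**Figure D4:**
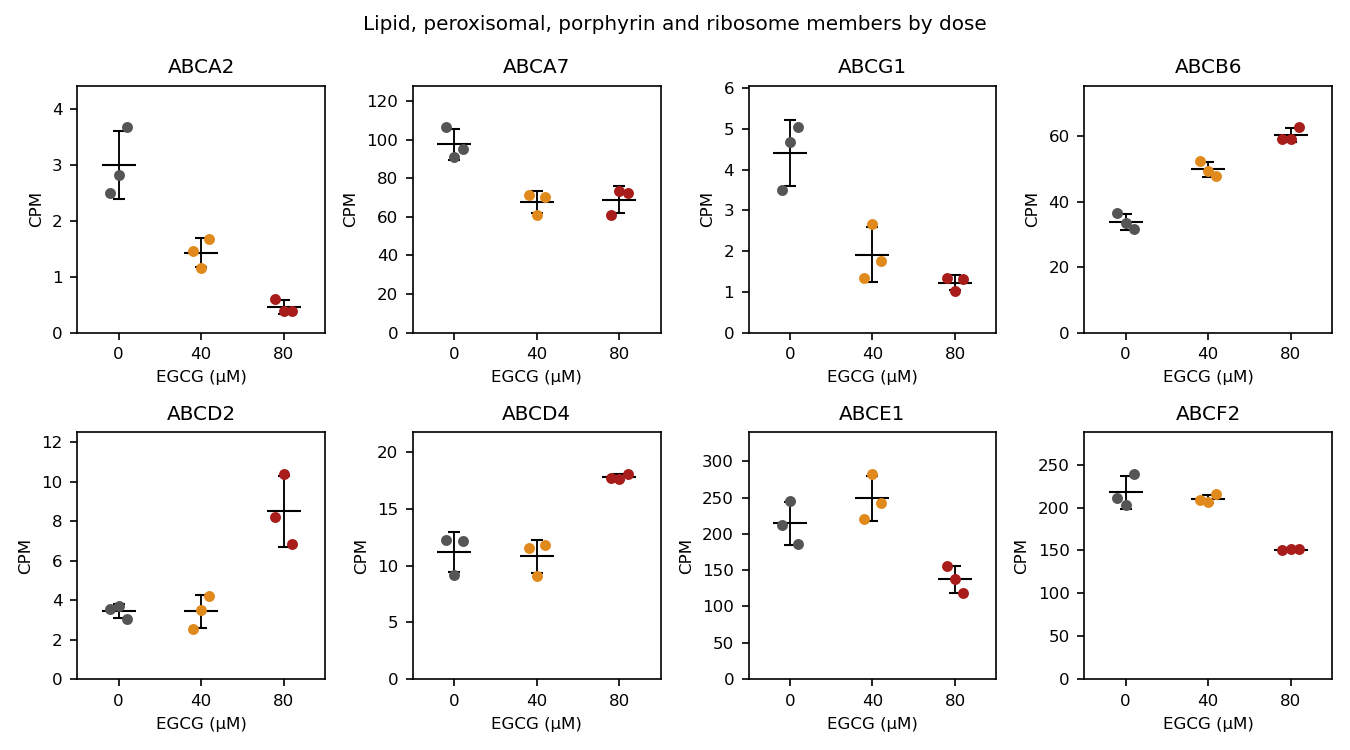
CPM of 8 called members outside the drug pumps by EGCG dose in µM, drawn as libraries (points) with the mean and SD of 3 (dash and bar) on axes from 0. At 80 µM ABCB6, ABCD2 and ABCD4 are higher than in the control, and ABCA2, ABCA7, ABCG1, ABCE1 and ABCF2 are lower.

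Mean summed CPM at 80 µM was lower than in the control in subfamilies A, B, C, E, F and G, and higher in D. In summed FPKM the 80 µM libraries of A and B overlapped the control. Within A, ABCA7 went from 97.6 to 69.0 CPM, while the median log2 fold change of its 6 tested members was 0.20. Subfamily A summed to 123.3 ± 10.6 CPM in the control, 95.2 ± 5.95 CPM at 40 µM and 101 ± 8.91 CPM at 80 µM, and subfamily B to 335 ± 5.77, 336 ± 4.17 and 304 ± 2.43 CPM. Subfamily E, which is ABCE1 alone, summed to 215 ± 29.8, 249 ± 31.5 and 137 ± 18.2 CPM, and subfamily F to 301 ± 25.4, 285 ± 10.7 and 241 ± 5.82 CPM. Subfamily C summed to 194 ± 4.78 CPM in the control, 176 ± 8.17 CPM at 40 µM and 138 ± 4.85 CPM at 80 µM. Subfamily G summed to 17.6 ± 2.65 CPM, 12.5 ± 2.78 CPM and 8.62 ± 1.54 CPM in the same order of dose. Subfamily D ran the other way, with 39.9 ± 2.65 CPM, 42.9 ± 0.941 CPM and 49.7 ± 3.77 CPM. Over all members the sum was 1226 ± 12.2 CPM in the control, 1196 ± 16.7 CPM at 40 µM and 979 ± 15.1 CPM at 80 µM; no test was made on these sums.

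**Figure D5:**
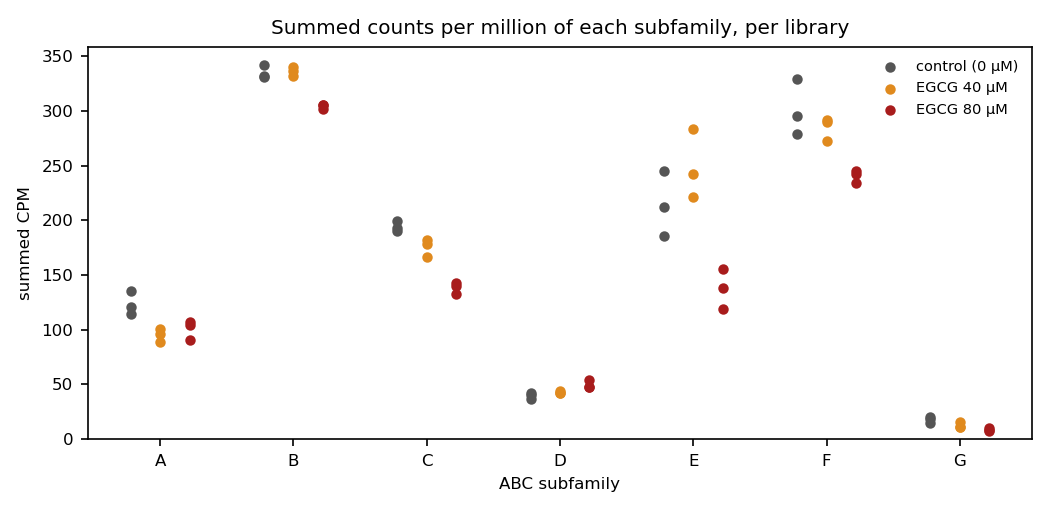
Summed CPM (axis from 0) of ABC subfamilies A to G, where each point is 1 library of the control, 40 µM or 80 µM group. Subfamilies B, C, E, F and G are lowest at 80 µM, subfamily A is lower at both doses than in the control, and subfamily D is highest at 80 µM.

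The remaining low members add little. ABCC11 had 2 counts over the control libraries, 3 at 40 µM and 12 at 80 µM (80 µM ratio 6, interval 1.33 to 55.2). ABCB4, the phospholipid floppase of liver next to ABCB1 on chromosome 7, had 0 counts over the control libraries, 4 at 40 µM and 2 at 80 µM. ABCB11, ABCC3, ABCC6, ABCC9 and ABCG4 had at most 3 counts in any group. Another 19 rows carry ABC symbols but are pseudogenes, antisense or readthrough genes, and were not counted as members.

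RefSeq (GRCh38.p14) has promoters for 35 of the 45 members, in 53 entries, and the 250 bases before each start were searched on both strands beside 35116 promoters of all genes. The antioxidant response element core, TGACNNNGC, was in 17.0% of member promoters and 10.9% of all, and the E-box CACGTG in 17.0% and 6.3%. The GC box GGGCGG was in 47.2% and 42.6%, CCAAT in 20.8% and 32.0%, TATAAA in 11.3% and 10.7%, GAANNTTC in 3.8% and 5.8%, and the C/EBP-ATF element TGATGNAA in 1.9% and 3.1%. An exact direct repeat of AGGTCA with a 4-base gap was in no member promoter and in 5 of all. With so few exact matches anywhere, this search could not show whether members carry inexact forms of the repeat. The antioxidant core was before 2 of the 6 members that rose at 80 µM (ABCB6 and ABCD4), 2 of the 8 with a promoter among the 11 that fell (ABCA2 and ABCC4), and 4 of the 9 with a promoter among the tested members not called. A match is a description of letters, not a bound site.

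Promoters of a pair of members that rose and a pair that fell are shown because the antioxidant core and the GC box each occur before a riser and before a faller. They run 5′ to 3′ on the gene's strand, here the minus strand for each, from chr2:219218959-219219208 (ABCB6), chr14:74302935-74303184 (ABCD4), chr13:95301452-95301701 (ABCC4) and chr7:151227206-151227455 (ABCF2). Capitals mark the antioxidant core in ABCB6 (at -152 from the start), ABCD4 (at -168) and ABCC4 (at -149), in ABCD4 and ABCC4 on the other strand, GC boxes in ABCB6, ABCD4 and ABCF2, and CCAAT boxes in ABCB6 and ABCF2. In ABCB6 an E-box at -156 overlaps the antioxidant core and shares its capitals.
ABCB6: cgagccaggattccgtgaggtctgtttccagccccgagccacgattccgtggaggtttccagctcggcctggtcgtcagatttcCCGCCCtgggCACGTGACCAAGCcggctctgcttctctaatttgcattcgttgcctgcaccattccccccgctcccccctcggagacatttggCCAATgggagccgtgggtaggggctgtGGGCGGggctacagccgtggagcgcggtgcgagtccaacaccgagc
ABCD4: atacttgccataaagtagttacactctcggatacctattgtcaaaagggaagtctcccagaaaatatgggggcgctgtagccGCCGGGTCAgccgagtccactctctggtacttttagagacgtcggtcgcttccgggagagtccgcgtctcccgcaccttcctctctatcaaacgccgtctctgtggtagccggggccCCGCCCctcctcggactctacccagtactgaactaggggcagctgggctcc
ABCC4: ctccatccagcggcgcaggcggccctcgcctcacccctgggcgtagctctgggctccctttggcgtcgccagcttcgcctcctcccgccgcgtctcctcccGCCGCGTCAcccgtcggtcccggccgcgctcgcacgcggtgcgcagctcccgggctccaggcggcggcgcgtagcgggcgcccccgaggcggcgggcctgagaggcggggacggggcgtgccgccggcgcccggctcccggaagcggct
ABCF2: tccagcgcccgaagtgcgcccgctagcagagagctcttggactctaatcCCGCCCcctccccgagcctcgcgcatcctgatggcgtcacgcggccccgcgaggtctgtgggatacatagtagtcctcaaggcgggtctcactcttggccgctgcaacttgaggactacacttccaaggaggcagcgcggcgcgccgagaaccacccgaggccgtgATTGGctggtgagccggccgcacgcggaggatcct

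Of 22 tested factors known to control ABC transporter genes 6 rose and 2 fell at 80 µM, with a median of 0.27, where 17.4% of all genes tested rose and 17.5% fell. At 40 µM 1 rose, where 1.49% of all genes tested did. The C/EBP factor CEBPB changed by 2.82 ± 0.12, FOXO1 by 1.61 ± 0.15 and the Y-box protein YBX1 by -0.88 ± 0.11 on the log2 scale (adjusted p = 4.47e-07, 3.79e-05 and 0.000206). Of 13 glutathione enzymes that feed subfamily C 2 rose and 4 fell at 80 µM, with a median of -0.13. The subunits GCLM and GCLC of glutamate-cysteine ligase changed by 1.04 ± 0.11 and 0.67 ± 0.11, and GSTO1 by -0.63 ± 0.13 (adjusted p = 0.000101, 0.00115 and 0.00416). Of 17 tested drug and solute carriers of the SLC families 3 rose and 4 fell (median 0.02), among them the organic anion importers SLCO4C1 at 3.62 ± 0.27 and SLCO2B1 at 3.70 ± 0.29 and the nucleoside carrier SLC29A1 at -1.16 ± 0.11 (adjusted p = 1.06e-05, 1.5e-05 and 3.79e-05). The potassium channel subunit KCNJ11, a partner of ABCC8, was not called (-0.74 ± 0.50, adjusted p = 0.279).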

How the data were processed

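RNA of MM.1S cells was read in 9 libraries, 3 at each dose. Per the file headers, each library has a count column and an FPKM column in 1 deposited table. The count values in the deposited table are unnormalized whole numbers. The deposited FPKM values, normalized to gene length and depth, served for levels between genes and were not tested. Tools named in the submitters' processing notes are CASAVA 1.8, HISAT2, SAMtools 1.3.1, edgeR and GRCh38. No source used here gives the counting program, its strand setting or the gene annotation.

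Gene types and positions came from GENCODE 29 (GRCh38). Counts were filtered with filterByExpr by group, scaled by TMM and tested with edgeR 4.0.16 in R 4.3.3 in 1 fit of the 9 libraries by dose group (6 residual degrees of freedom). The common biological coefficient of variation was 0.187. The test was two-sided, checked on simulated data, and adjusted over all 15982 genes tested. Standard errors are the absolute log2 fold change over the square root of F. Replicates were not copies, with a chi-square of 12.27 to 32.05 per degree of freedom. Ratios of counts of untested members have exact binomial 95% intervals.

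Values per library are given for the pumps ABCB1, ABCC1, ABCC4 and ABCG2, for the member of highest mean FPKM in each subfamily, and for up to 16 further called members with a mean of at least 1 CPM, in order of smallest p. Other lists name up to 3 called genes of smallest p at 80 µM. Some genes that these rules take are not reported here. Members and lists were chosen with earlier results of these data known. The 18 alternatives covered scaling (RLE, upper quartile), tools (DESeq2 1.42.0, limma-voom 3.58.1), filters, the libraries fitted, a replicate block, each library left out, and overlapping genes added.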

Additional observations from a re-analysis of the deposited data

How the results depend on the processing

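No called member changed sign under any of the 18 alternatives. At 80 µM against the control 6 to 8 members were called higher and 10 to 12 lower over these alternatives, and at 80 µM against 40 µM 4 or 5 higher and 5 to 8 lower. Counts at 40 µM against the control moved most. The 2 called higher became 1 without the low-count filter, with a fit of the 6 compared libraries alone and with the replicate block, and 1 to 2 when each library was left out. The 1 called lower became 3 with DESeq2 (ABCG1 among those added), 2 with limma-voom (ABCG1 added), and 0 with no filter, with only the 6 libraries and with the replicate block, all 3 in edgeR with 6, 6 and 5 members lower at an unadjusted p under 0.05. It was 0 to 1 when each library was left out, and without 40 µM replicate 2 the member called was ABCG1. Over all genes, 368 were called at 40 µM, beside 859 with DESeq2, 228 with no filter, 153 with the 6 libraries, 183 with the block and as few as 136 with a library left out. Without 80 µM replicate 2 or 3, 2101 or 2288 genes were called at 80 µM against 40 µM, beside 3674. The causes were not tested.

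The labels tie equal replicate numbers to nothing shared. Same-numbered libraries correlated at -0.139 to 0.051 in their deviations from group means, and a library correlated best with its own number in 3 of 18 comparisons. With the replicate block 6 members were called higher and 10 lower at 80 µM against the control, and 4 higher and 6 lower against 40 µM. Outside the fit with no filter, depth limits untested members with counts, ABCA6, ABCA9 and ABCA12 among them, to counting intervals. The 4 members with no count in any library have no such interval.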

Other observations

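Counts of ABCF2-H2BK1, the readthrough gene that overlaps ABCF2, were uneven between replicates. They were 283 in 40 µM replicate 2 and 226 in control replicate 3, and 35 to 74 in the other 7 libraries. The pseudogene ABCA11P was the only ABC-named row outside the family, apart from ABCF2-H2BK1, with more than 36 counts in all. It had 74, 54 and 29 counts in control libraries, 87, 47 and 78 at 40 µM and 43, 49 and 51 at 80 µM. CFTR, the chloride channel of subfamily C that the symbol pattern leaves out, had 22 counts over the 9 libraries.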
